A study of Mus musculus with 6 samples.

Results

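The 41 genes described here were strongly biased to one allele in 1 clonal mouse B-cell line, Abl.3, and closer to an even use of both alleles in the clones Abl.2 and Abl.4. They were chosen by their maternal share, the maternal count divided by the counts of both alleles. A gene had to lie on an autosome other than chromosome 4 or 10 and to have 20 or more allelic counts in every one of the 6 libraries. Its mean share had to be 0.1 or less, or 0.9 or more, in Abl.3 and from 0.3 to 0.7 in both other lines. Of 19402 genes in the allele table, 7495 met the conditions on counts and chromosome, and 41 of these met the conditions on share. The same rule turned round gave 90 genes for Abl.2 alone and 30 for Abl.4 alone. Here monoallelic means only past these limits of share: Lrpap1, Sdr39u1, Myl10 and Scin still had 419, 404, 211 and 153 counts of the other allele over the Abl.3 libraries. Because the shares chose the genes, all shares below are a description without a test.

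The lines are immortalised B cells of a 129S1/SvImJ x CAST/EiJ F1 cross, so that strain differences tell the maternal from the paternal transcript. Per the labels, the cells of Abl.3 are male and those of the other lines female. All 3 lines were controls in medium with 1% DMSO, a solvent, and live cells were collected on day 2 over a density gradient. Each line is 1 clone with 2 library preparation replicates, so the spread between replicates and every p-value cover library preparation and counting, not other clones or animals. Sex and line cannot be told apart in a comparison of Abl.3 with the others.

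In most genes both parental copies are transcribed. In random monoallelic expression a cell uses 1 copy of an autosomal gene, and its daughters keep that choice, so that clones of the same genotype differ in which copy is used. DNA methylation of CpG dinucleotides at promoters is one of the marks known to be copied through cell division, and the title of the study names it. In the 6 libraries, 9 of 9 B-lineage markers were above the abundance limit. Their summed level was 5507.5 and 5963.1 TPM (transcript counts set relative to the length of the gene and the size of the library) in Abl.3, below the 6966.8 to 7736.3 of the other libraries. The 9 precursor B markers summed to 9608.4 and 10581.1 TPM in Abl.3, 9666.2 and 10216.9 in Abl.2 and 8449.4 and 8512.5 in Abl.4. The 6 mature B markers with an abundance value summed to 809.1 and 887.8 in Abl.3, above the 513.0 to 596.0 elsewhere. The 5 plasma-cell markers summed to 117.8 and 119.1 in Abl.3, below the 163.9 to 168 elsewhere. Erythroid markers, 5 in number, summed to at most 1.2 TPM. The 8 T-cell markers summed to at most 0.07 TPM and the 5 stromal markers to at most 0.07 TPM. The 8 myeloid markers summed to between 74.98 and 193.2 TPM, with Adgre1, Elane, S100a8 and S100a9 at 0 throughout. Lyz2, at 70.84 to 192.8 TPM, made up nearly all of that sum, and Itgam was at 6.89 and 6.74 TPM in Abl.4. The 5 NK-cell markers summed to between 0.85 and 16.7 TPM, nearly all of it Klrb1c, at up to 16.13 in Abl.2, with Ncr1 at 0. Allelic counts per library ran from 18362319 to 26881211.

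In Abl.3, 23 of the genes were biased to the paternal copy and 18 to the maternal copy. The paternal genes were Nuak2, Aim2, Taf1a, Txndc15, Fam151b, Ang, Gabbr1, Plpp6, Eng, Shld1, Tlr2, Klhl7, Zfp932, Myl10, Mturn, Tarsl2, Lrrk1, Gdpd5, Nlrp10, Hsh2d, Clgn, Wwox and Ctsh. The maternal genes were Osm, Nxn, Trim65, Hpcal1, Scin, Mccc2, Gm6169, Sdr39u1, Abcc4, Fbxo32, Adcy9, Nmral1, Dirc2, Zfp947, Egf, Lrpap1, Xylb and AI429214. The balance was more even than in the Abl.2 list, where 34 genes were paternal and 56 maternal, and than in the Abl.4 list with 23 paternal and 7 maternal. These splits were not tested against each other. In Abl.3, 17 genes lay within 0.01 of a share of 0 or 1, and 11 of them had no count of the minor allele, the one with fewer counts in Abl.3, in either Abl.3 library.

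**Figure D1:**
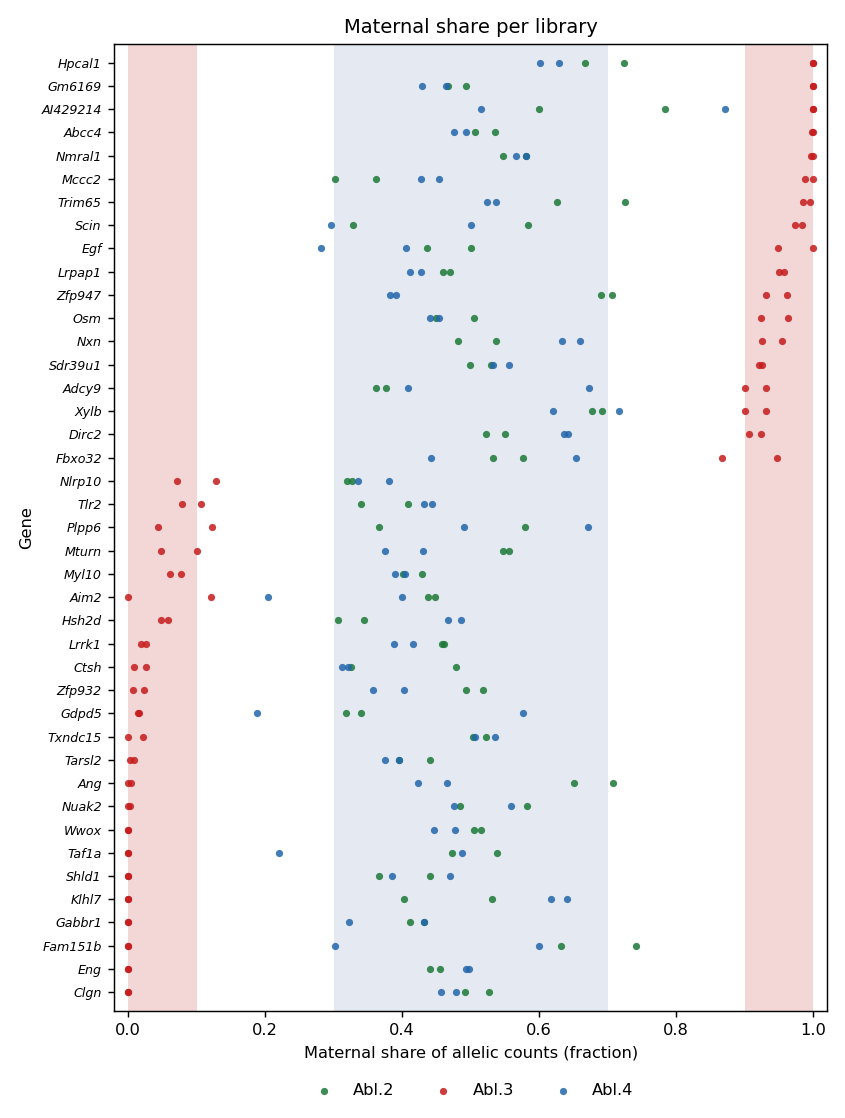
Maternal share of allelic counts (x axis, fraction) of the 41 genes in each of the 6 libraries, 2 points per line. Shaded bands mark the limits used to choose the genes, up to 0.1 and from 0.9 for Abl.3 (red) and from 0.3 to 0.7 for the others (green and blue); 76 of 82 red points and 151 of 164 others lie inside their bands.

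The replicate libraries mostly repeated each other. Between replicates the share differed by a median of 0.0354 for Abl.2, by 0.0104 for Abl.3 and by 0.0303 for Abl.4. The largest differences were 0.255 for Scin in Abl.2, 0.121 for Aim2 in Abl.3 and 0.389 for Gdpd5 in Abl.4. The 95% Wilson intervals of the replicates did not overlap for Scin, from 64 and 72 counts, or for Gdpd5, from 197 and 111 counts, and overlapped for Aim2, from 33 and 30 counts. Counts of the genes per library had a median of 463 for Abl.2, 235 for Abl.3 and 261 for Abl.4, and 7 genes had fewer than 50 counts in an Abl.3 library. The intervals of both Abl.3 libraries lay within the limits for 26 genes, and those of all 6 libraries for 14. These intervals, and the count floors below, cover counting error alone, because the libraries carry no molecular identifiers that would tell molecules from copies.

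Outside Abl.3 the genes were not all equally even. The median share was 0.480 in Abl.2 and 0.447 in Abl.4, and 16 of the 41 lay from 0.4 to 0.6 in both. The median difference between these lines was 0.0576, and the largest was 0.311, for the zinc finger gene Zfp947. The authors' deposited table of allelic imbalance gives an estimate for 34 of the genes in Abl.3, none over 0.00702 from the mean share used here. These genes were chosen on the same counts. There, 17 of the 34 intervals lie wholly within the limits of 0.1 or 0.9, and every one of the 34 excludes 0.5, while the interval holds 0.5 for 32 of 39 genes in Abl.2 and for 31 of 37 in Abl.4.

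Some genes sat close to the limits. Just inside were Nlrp10, a NOD-like receptor family gene, at a mean share of 0.0997 in Abl.3, Tlr2 at 0.0923, and Fbxo32, which encodes the ubiquitin ligase adaptor atrogin-1, at 0.907. Nlrp10 was at 0.128 and 0.0714 in its 2 Abl.3 libraries, Tlr2 at 0.0780 and 0.107, and Fbxo32 at 0.867 and 0.947. In each of these genes 1 Abl.3 library thus did not meet the limit. Just outside were Slamf6 at 0.895, Decr2 at 0.109 and Pla2g16 at 0.889, which are not counted among the 41.

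Lrpap1 was the most deeply counted gene, and it is described first, with a co-receptor and a cytokine gene. Lrpap1 (ENSMUSG00000029103; chromosome 5, 35091501 to 35105766) encodes a chaperone of LDL-receptor family proteins. Its maternal share was 0.470 and 0.459 in the libraries of Abl.2, 0.95 and 0.957 in Abl.3, and 0.427 and 0.411 in Abl.4. With at least 4378 counts in each library, the Abl.3 intervals ran from 0.944 to 0.956 and from 0.95 to 0.962, so a small part of its counts still came from the paternal copy. Eng (ENSMUSG00000026814; chromosome 2, 32646595 to 32682669) encodes endoglin, a co-receptor for TGF-beta family ligands. Its share was 0.455 and 0.440 in Abl.2 and 0.493 and 0.497 in Abl.4, and no maternal count was seen among the 577 of Abl.3, which allows a maternal share of up to 0.00520. Osm (ENSMUSG00000058755; chromosome 11, 4236420 to 4241026) encodes oncostatin M, a cytokine of the interleukin-6 family. It was at 0.504 and 0.449 in Abl.2, 0.963 and 0.923 in Abl.3, and 0.454 and 0.440 in Abl.4.

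Other deeply counted genes encode transporters, enzymes or proteins like them. Abcc4 (ENSMUSG00000032849; chromosome 14, 118482692 to 118706219) encodes a membrane pump that exports organic anions. It was at 0.535 and 0.506 in Abl.2 and 0.493 and 0.475 in Abl.4, and 1 paternal count was seen among 716 and 640 in the Abl.3 libraries. Dirc2 (ENSMUSG00000022848; chromosome 16, 35694062 to 35769356), a membrane transporter gene, was at 0.550 and 0.522 in Abl.2, 0.923 and 0.906 in Abl.3, and 0.641 and 0.637 in Abl.4. Mccc2 (ENSMUSG00000021646; chromosome 13, 99948530 to 100015639) encodes a subunit of the leucine-degrading enzyme methylcrotonyl-CoA carboxylase. It leaned to the paternal copy in Abl.2, at 0.302 and 0.362, and in Abl.4, at 0.428 and 0.454, and to the maternal copy in Abl.3, at 1.00 and 0.988. Nmral1 (ENSMUSG00000063445; chromosome 16, 4710059 to 4719356), which encodes a protein that binds NADPH, was at 0.581 and 0.548 in Abl.2, 0.999 and 0.997 in Abl.3, and 0.581 and 0.565 in Abl.4. Tarsl2 (ENSMUSG00000030515; chromosome 7, 65644898 to 65692091), a threonyl-tRNA synthetase-like gene, was at 0.440 and 0.396 in Abl.2, 0.00890 and 0.00299 in Abl.3, and 0.375 and 0.396 in Abl.4. In each of these genes the Abl.3 libraries stood apart from the 4 others by a wide gap, which the rule on mean share largely fixed in advance. Sdr39u1 (ENSMUSG00000022223; chromosome 14, 55897283 to 55900293), of the short-chain dehydrogenase family, was at 0.499 and 0.530 in Abl.2, 0.925 and 0.921 in Abl.3, and 0.532 and 0.556 in Abl.4.

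Kinases, a myosin light chain and a repair factor were the other genes among the 12 with the highest lowest-library count, to which Eng does not belong. Lrrk1 (ENSMUSG00000015133; chromosome 7, 66226912 to 66388350), a multidomain kinase gene, was at 0.458 and 0.461 in Abl.2, 0.0186 and 0.0259 in Abl.3, and 0.416 and 0.387 in Abl.4. Nuak2 (ENSMUSG00000009772; chromosome 1, 132316126 to 132333488), of the AMPK-related kinases, had 1 maternal count among 467 and 0 among 524 in the Abl.3 libraries. It was at 0.485 and 0.582 in Abl.2 and at 0.559 and 0.476 in Abl.4. Myl10 (ENSMUSG00000005474; chromosome 5, 136693146 to 136701094) encodes a myosin regulatory light chain and was at 0.401 and 0.429 in Abl.2, 0.0770 and 0.0615 in Abl.3, and 0.405 and 0.389 in Abl.4. Shld1 (ENSMUSG00000044991; chromosome 2, 132686931 to 132751055) encodes a subunit of shieldin, a complex that protects broken DNA ends from resection and that B cells use in class switching. It was at 0.441 and 0.366 in Abl.2 and 0.469 and 0.385 in Abl.4, with no maternal count among 603 in Abl.3, which allows a share of up to 0.00498. Nuak2 and Shld1 were thus without a count of the minor allele in at least 1 Abl.3 library, while Myl10 and Lrpap1 kept a counted minority of it.

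Coordinates are those of the authors' tables. GENCODE release M21, on GRCm38, gives the same start and end for all 41 genes, and all 41 are protein-coding there, against 98.6% of the 7487 genes with enough counts that it lists. Their median span was 29102 bases, against 23957 for the genes with enough counts. The genes lay on 16 of the 17 chromosomes considered, with none on chromosome 18 and at most 4 on any one.

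Most genes next to the 41 had an even share. A gene near several members was counted with each of them. The 5 nearest genes with enough counts on either side gave 405 neighbours that do not overlap the gene. In Abl.3, 344 of these (84.9%) had a share from 0.3 to 0.7, against 87.9% of all genes with enough counts, and the median share towards the major allele of the gene they adjoin was 0.512. The median of the neighbours of a gene ran from 0.392 to 0.569, and lay between 0.4 and 0.6 for 40 of the 41. Strong bias to the same allele was seen in 16 of the 405 (3.95%), where 2.12% of genes with enough counts were strongly maternal in Abl.3 and 2.22% strongly paternal. Of the 16, 4 were members themselves, counted from either side. Another 6 were strongly biased to that allele in all 3 lines, among them Ifi206 and Ifi213 next to Aim2, Gvin1 next to Nlrp10 and Col26a1 next to Myl10. The others were Gm26619 and Gm10260 next to Gm6169. These had identical shares, 0.9765 in Abl.2, 0.9747 in Abl.3 and 0.968 in Abl.4, and whether they count the same reads was not tested.

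**Figure D2:**
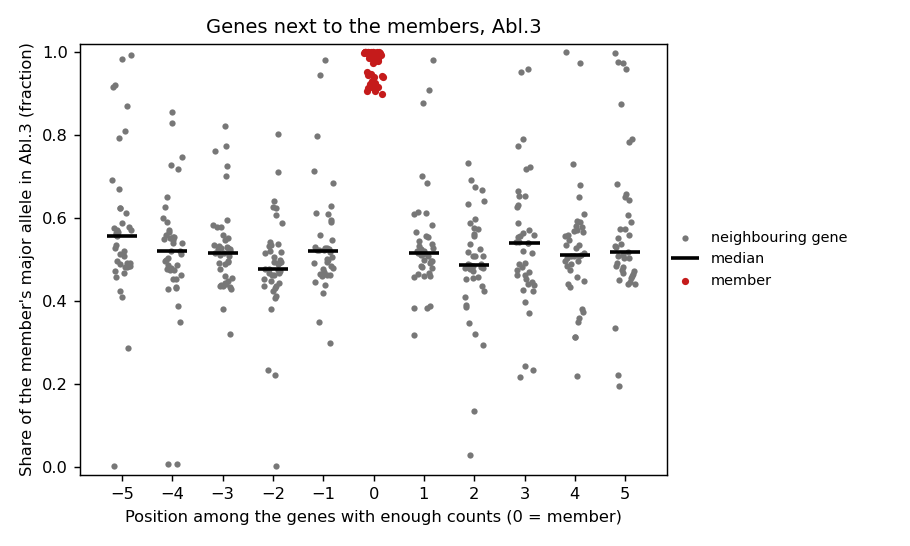
Share in Abl.3 of each gene's major allele (y axis, fraction) for the 41 genes (red, position 0) and for the 5 nearest genes with enough counts on either side that do not overlap them (grey; black bars are medians). Neighbours centre near an even share, with a median of 0.512 over all 405, while the members lie at 0.9 or above because they were chosen so.

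A pair of members within 1000000 bases of each other was found in 2 places. Adcy9, an adenylate cyclase gene, and Nmral1 lie 289561 bases apart on chromosome 16, and both were biased to the maternal copy. Tarsl2 and Lrrk1 lie 534821 bases apart on chromosome 7, and both were biased to the paternal copy. Genes with enough counts that lie between the members of a pair were not members themselves.

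Overlap with other genes limits what some values mean, because it is not given in the sources used here whether reads were counted by strand. Exons of 10 members overlap another annotated gene. Ang, which encodes the ribonuclease angiogenin, shares exons with Rnase4 on the same strand, and Rnase4 itself had mean shares of 0.839 for Abl.2, 0.00161 for Abl.3 and 0.422 for Abl.4. The exons of Sdr39u1 overlap Khnyn on the opposite strand, whose shares were 0.50, 0.60 and 0.513 for Abl.2, Abl.3 and Abl.4. Those of Eng overlap Fpgs on the opposite strand, at 0.488, 0.487 and 0.451 in the same order, and those of Tarsl2 overlap Tm2d3 at 0.494, 0.401 and 0.535. Of these 4 partners, the ones with enough counts, Rnase4 was as biased as its member in Abl.3, and the others were at 0.401 to 0.60. Trim47, which had too few counts, shares exons with Trim65 on the same strand and had shares of 0.958, 0.906 and 0.691 for Abl.2, Abl.3 and Abl.4, from 5 to 17 counts a library.

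CpG content was counted in promoters because DNA methylation is in the title of the study. RefSeq promoters on GRCm38.p6 were matched for 28 of the 41 genes and for 5909 of those with enough counts, and the 250 bases before the start were searched for the letters CG, which read the same on both strands. The genes had a median of 14 CpG, against 17 for the larger set. Under 5 CpG were found in 5 of 28 (17.9%), against 8.48%, and at least 10 CpG in 18 of 28 (64.3%), against 78.3%. For Aim2 the RefSeq start lies 69725 bases from the gene start used here, and for the 27 others at most 213; without Aim2, 4 of 27 (14.8%) had under 5. At least 1 CpG was present in 99.2% of the promoters of that length. Where a gene had several listed starts, 1 was used. The range over the 28 ran from 0 in Egf, a growth factor gene, to 35 in Abcc4. These counts describe the sequence; methylation was not analysed here.

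**Figure D3:**
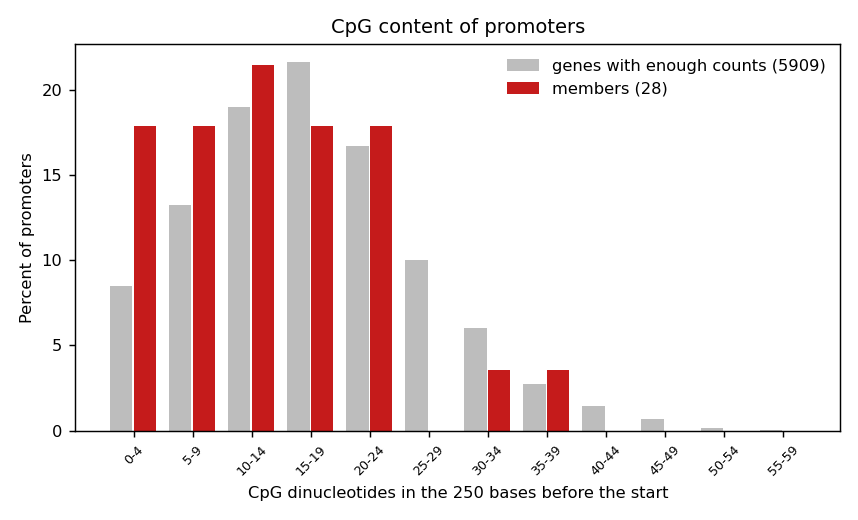
Percent of promoters (y axis) by the number of CpG dinucleotides in the 250 bases before the start (x axis, in steps of 5), for the 28 matched members (red) and the 5909 matched genes with enough counts (grey). Members are found from 0 to 35 CpG, with 5 of 28 under 5.

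The promoters of 4 of the 12 members with the highest lowest-library count are printed. Nuak2, Nmral1 and Osm of these 12 had no matched promoter. Printed to show the span among the matched ones are those with the fewest CpG (Myl10 and Shld1, both paternal in Abl.3) and the most (Dirc2 and Abcc4, both maternal). The choice of the extremes fixed that span. Each is the 250 bases before a start from RefSeq on GRCm38.p6, 5′ to 3′ on the strand of the gene, with CpG in capitals. RefSeq lists 3 starts for Myl10, 3 for Shld1 and 2 for Abcc4, and the CpG at their other starts are not given here. They lie at chr5:136692896-136693145 on the plus strand with 3 CpG for Myl10, chr2:132686681-132686930 on the plus strand with 6 for Shld1, chr16:35769371-35769620 on the minus strand with 20 for Dirc2 (Slc49a4 in RefSeq), and chr14:118706220-118706469 on the minus strand with 35 for Abcc4.
Myl10: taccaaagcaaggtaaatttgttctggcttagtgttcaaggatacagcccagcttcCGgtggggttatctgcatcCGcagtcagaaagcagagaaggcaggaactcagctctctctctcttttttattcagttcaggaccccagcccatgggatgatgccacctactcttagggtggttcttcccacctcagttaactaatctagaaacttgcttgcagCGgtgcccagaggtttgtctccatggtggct
Shld1: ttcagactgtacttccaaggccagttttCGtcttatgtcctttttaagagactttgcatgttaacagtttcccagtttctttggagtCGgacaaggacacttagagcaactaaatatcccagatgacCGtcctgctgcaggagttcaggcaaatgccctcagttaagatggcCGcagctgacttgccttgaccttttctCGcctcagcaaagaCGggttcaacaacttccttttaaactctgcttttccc
Dirc2: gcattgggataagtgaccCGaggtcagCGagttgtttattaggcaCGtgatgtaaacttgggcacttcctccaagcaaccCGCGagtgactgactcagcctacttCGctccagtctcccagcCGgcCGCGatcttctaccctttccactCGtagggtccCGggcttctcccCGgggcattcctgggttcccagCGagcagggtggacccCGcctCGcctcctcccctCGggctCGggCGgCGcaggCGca
Abcc4: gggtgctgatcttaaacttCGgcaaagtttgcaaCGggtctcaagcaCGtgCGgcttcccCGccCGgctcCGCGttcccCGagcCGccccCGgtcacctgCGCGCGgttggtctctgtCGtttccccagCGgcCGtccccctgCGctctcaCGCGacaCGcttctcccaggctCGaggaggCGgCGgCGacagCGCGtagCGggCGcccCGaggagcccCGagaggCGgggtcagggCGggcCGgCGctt

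Transcript abundance was tested, with limits on its independence. The rule on share did not use TPM, but it set a floor of 20 allelic counts in every library, which is a condition on level, and the libraries are the same. Lower abundance of strongly biased genes had also been seen in these data when the genes were chosen, so the test is no independent evidence of that direction. As a group the genes were low in Abl.3 and modest in level everywhere: their median was 6.40 TPM for Abl.2, 4.44 for Abl.3 and 7.56 for Abl.4, where genes with enough counts had 28.3, 25.3 and 29.5 TPM. By limma on log2(TPM + 1) over 11003 genes, with Benjamini-Hochberg adjustment and a threshold of 0.05, 40 of the 41 could be tested, Egf being under the limit of 1 TPM. Against Abl.2, 27 of 40 were lower in Abl.3 and 5 higher, where 25.9% of all genes tested were lower and 14.0% higher. Against Abl.4, 25 were lower and 5 higher, where 26.8% of all genes were lower and 11.3% higher. These comparisons share the Abl.3 libraries. The median change of the 40 was -0.95 on the log2 scale against Abl.2 and -0.97 against Abl.4, beside -0.10 and -0.15 over all genes tested. Between Abl.2 and Abl.4, which does not involve Abl.3, 17 of the 40 differed, 9 lower and 8 higher in Abl.2, with a median of 0.06, where 33.5% of all genes differed. The 17 became 9 without Abl.2 replicate 1 and 11 without Abl.2 replicate 2. In bulk RNA, fewer cells with a transcript and less of it per cell cannot be told apart.

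In both comparisons, 21 of the 40 (52.5%) were lower in Abl.3, against 14.6% of all genes tested and 14.8% of those with enough allelic counts. Of the 9 B-lineage markers, 6 were lower in both as well, among them Pax5, a transcription factor of B-cell identity, by -1.89 and -1.41 on the log2 scale. The part of this in the members' levels was not tested. Higher in both were 4 (Scin, Gdpd5, Sdr39u1 and Ang, 10%), against 4.92% and 4.36%; Scin passed the limit on abundance only through Abl.3. With no filter on low values, 20 were lower and 3 higher in both. Clgn and Ctsh passed the test in opposite directions, 8 were lower in one comparison only, and 5 (Gabbr1, Nuak2, AI429214, Nxn and Hpcal1) passed neither. Without a test, both Abl.3 libraries lay below the 4 others for 27 genes and above them for 4, where 30.1% and 13.6% of all genes did. Of paternal genes 13 of 23 were lower in both and 2 higher, and of maternal genes 8 of 17 and 2. The scaling of the libraries moves the background: of all genes called, 65.0% were lower in Abl.3 against Abl.2 and 70.2% against Abl.4, and with library medians set equal these shares became 40.2% and 36.0%, with all-gene medians of 0.08 and 0.10 and 6.81% of genes lower in both. With that scaling 18 of the 40 members were lower in both.

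The same count was made for the lists of the other clones. Of the genes monoallelic in Abl.2 alone, 56 of 89 tested (62.9%) were lower in Abl.2 against both other lines, where 7.83% of all genes were, and 3 (3.37%) were higher, where 9.3% were. Of those monoallelic in Abl.4 alone, 12 of 26 (46.2%) were lower in Abl.4, where 4.84% were, and 0 were higher by limma, where 10.2% were, a count that was also 0 at an unadjusted p under 0.05, with edgeR and with DESeq2. The median of the mean change was -0.86 for the Abl.2 list, -0.55 for the Abl.4 list and -0.93 for the 40 of Abl.3. The lists were not tested against each other.

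Eng was among the genes that fell most. It was at 104.8 and 97.69 TPM in Abl.2, 18.96 and 23.63 in Abl.3, and 121.2 and 115.3 in Abl.4. The Abl.3 libraries lay far below the rest, with a log2 change of -2.20 (SE 0.116, adjusted p = 4.16e-05, limma) against Abl.2 and -2.43 (adjusted p = 3.49e-05) against Abl.4. Txndc15 (ENSMUSG00000021497; chromosome 13, 55714650 to 55726227), a thioredoxin-domain gene, was at 29.86 and 27.77 TPM in Abl.2, 6.15 and 4.78 in Abl.3, and 23.88 and 23.51 in Abl.4. Its changes were -2.21 and -1.94 (SE 0.130, adjusted p = 6.49e-05 and 0.000139, limma). Its maternal share in Abl.3 was 0.0217 and 0, against 0.504 to 0.536 elsewhere.

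Abcc4, whose promoter holds 35 CpG, was at 20.52 and 19.30 TPM in Abl.2, 4.49 and 4.39 in Abl.3, and 14.23 and 13.48 in Abl.4. Its changes were -1.94 and -1.45 (SE 0.107, adjusted p = 5.09e-05 and 0.000209, limma). Hsh2d (ENSMUSG00000062007; chromosome 8, 72189638 to 72201527), an adaptor gene with an SH2 domain, was at 14.68 and 13.22 TPM in Abl.2, 2.57 and 2.45 in Abl.3, and 6.90 and 8.26 in Abl.4. The changes were -2.09 and -1.29 (SE 0.139, adjusted p = 0.000104 and 0.000928, limma), on 83 and 85 allelic counts in Abl.3. Mturn (ENSMUSG00000038065; chromosome 6, 54681624 to 54703851), named for a regulator of neural progenitor differentiation, was at 3.97 and 3.64 TPM in Abl.2, 0.86 and 0.84 in Abl.3, and 7.03 and 8.09 in Abl.4. The changes were -1.38 and -2.21 (SE 0.149, adjusted p = 0.000816 and 0.000142, limma), with only 20 and 21 allelic counts in Abl.3.

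The largest fall on the log2 scale, that of Gm6169, is uncertain. This predicted gene (ENSMUSG00000057762; chromosome 13, 97098208 to 97099237) lies within Fam169a on the opposite strand. It was at 45.09 and 44.31 TPM in Abl.2, 1.88 and 1.04 in Abl.3, and 32.92 and 33.07 in Abl.4, changes of -4.24 and -3.81 (SE 0.168, adjusted p = 1.39e-05 and 2.85e-05, limma). Its allelic counts fell far less, from 182 and 239 in Abl.2 to 79 and 84 in Abl.3, beside 153 and 105 in Abl.4, and edgeR on these counts gave -0.97 against Abl.2 and -0.58 against Abl.4, the second no longer past the threshold.

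The remaining genes of the 12 with the highest lowest-library count were lower as well, apart from Nuak2, Osm and Sdr39u1. Lrpap1 was at 140.8 and 152.6 TPM in Abl.2, 55.00 and 65.29 in Abl.3, and 198.0 and 157.8 in Abl.4. Lrrk1 was at 25.95 and 27.29 in Abl.2, 11.90 and 11.39 in Abl.3, and 38.32 and 37.70 in Abl.4. Myl10, with 3 CpG in its promoter, was at 117.6 and 133.9 TPM in Abl.2, 58.37 and 69.65 in Abl.3, and 177.1 and 199.3 in Abl.4. In these 3 genes the Abl.3 libraries did not overlap the others, with changes of -0.97 to -1.28 against Abl.2 and -1.54 to -1.63 against Abl.4. Nmral1, Mccc2, Dirc2, Tarsl2 and Shld1 fell in both comparisons too, with changes of -0.75 (Shld1) to -1.94 (Dirc2) against Abl.2 and of -0.56 (Shld1) to -1.42 (Tarsl2) against Abl.4. Shld1 was at 12.06 and 11.60 TPM in Abl.2, 6.90 and 6.40 in Abl.3, and 9.97 and 10.56 in Abl.4, and its call against Abl.4 was lost with DESeq2, with library medians set equal, with quantile normalisation and without Abl.3 replicate 2.

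A strongly biased share did not always come with a lower level. Nuak2 was at 6.43 and 5.58 TPM in Abl.2, 5.14 and 4.83 in Abl.3, and 7.20 and 4.73 in Abl.4, and its libraries overlapped. Its changes of -0.22 and -0.20 (SE 0.195) missed the threshold (adjusted p = 0.398 and 0.459, limma). Osm was at 18.91 and 20.22 TPM in Abl.2, 7.50 and 7.05 in Abl.3, and 7.57 and 10.20 in Abl.4. It was lower than in Abl.2, with a change of -1.31 (SE 0.152, adjusted p = 0.00108, limma), and the change of -0.24 against Abl.4 missed the threshold (adjusted p = 0.247).

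In the 4 genes that rose, the major allele of Abl.3 was above its level in every library of the other lines. Scin (ENSMUSG00000002565; chromosome 12, 40059769 to 40134228) encodes scinderin, a calcium-dependent protein that severs actin filaments. It was at 0.53 and 0.51 TPM in Abl.2, 36.26 and 36.66 in Abl.3, and 0.19 and 0.44 in Abl.4, changes of 4.62 and 4.84 on the log2 scale. Scin passed the limit of 1 TPM only through Abl.3, so its call there is not independent of the filter; with no filter the adjusted p was 0.00028 and 0.00033 (limma). Its maternal share was 0.328 and 0.583 in Abl.2 and 0.50 and 0.296 in Abl.4, from 22 to 72 counts a library, and 0.973 and 0.984 in Abl.3 from 3534 and 3454. The even share of Scin in the other lines thus rests on very little RNA.

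Gdpd5 (ENSMUSG00000035314; chromosome 7, 99381414 to 99461877), a glycerophosphodiester phosphodiesterase gene, was at 4.13 and 3.22 TPM in Abl.2, 25.95 and 25.78 in Abl.3, and 1.47 and 0.95 in Abl.4. It was higher by 2.53 and 3.61 (SE 0.173, adjusted p = 0.000119 and 3.49e-05, limma). Its maternal share was 0.0138 and 0.0154 in Abl.3 and 0.318 and 0.340 in Abl.2, but 0.188 and 0.577 in Abl.4 from 197 and 111 counts. Sdr39u1 was at 6.28 and 5.86 TPM in Abl.2, 45.96 and 43.21 in Abl.3, and 6.12 and 5.40 in Abl.4, changes of 2.69 and 2.75 (SE 0.114, adjusted p = 1.78e-05 and 2.54e-05, limma).

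Ang (ENSMUSG00000072115; chromosome 14, 51091150 to 51102009) was at 0.33 and 0.27 TPM in Abl.2, 8.14 and 4.48 in Abl.3, and 3.17 and 2.36 in Abl.4. It was higher by 2.45 and 0.92 (SE 0.269, adjusted p = 0.000866 and 0.0368, limma), and the change against Abl.4 lost its call when any library other than Abl.3 replicate 2 was left out, at 0.55 to 1.08. Its maternal share of 0.650 and 0.708 in Abl.2 came from 20 and 24 counts.

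In Clgn and Ctsh the level of Abl.3 lay between those of the other lines. Clgn encodes calmegin, a chaperone of the endoplasmic reticulum, and was at 18.74 and 18.31 TPM in Abl.2, 8.55 and 8.86 in Abl.3, and 3.61 and 4.25 in Abl.4. Ctsh, a lysosomal cathepsin gene, was at 1.79 and 1.45 TPM in Abl.2, 18.53 and 16.69 in Abl.3, and 97.90 and 83.93 in Abl.4. Against Abl.2 and Abl.4 the changes were -1.01 and 0.98 for Clgn and 2.83 and -2.30 for Ctsh, all past the threshold, and the libraries of the 3 lines did not overlap in either gene.

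The output of each allele was then taken apart, as CPM, allelic counts scaled to 1000000 counts on the autosomes outside chromosomes 4 and 10. These values come from the counts that chose the genes and are given without a test. The major allele of Abl.3 gave about as many counts there as in the other lines in the middle of the list: its median log2 difference from the mean of Abl.2 and Abl.4 was -0.08, with quartiles of -0.74 and 0.47. It was within 0.5 for 16 genes, under -0.5 for 15 and over 0.5 for 10, where 73.1% of 14907 allele values of genes with enough counts lay within 0.5, 16.8% under and 10.1% over. The minor allele had a median of -4.29 over the 24 genes with more than 3 counts of it over both Abl.3 libraries. With the 17 genes of 0 to 3 counts set at a floor of 3 counts over both libraries, the median was -5.08, an upper limit. For the 11 genes without a count the bounds run from at least 21.1-fold lower (AI429214) to at least 492.5-fold lower (Eng).

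**Figure D4:**
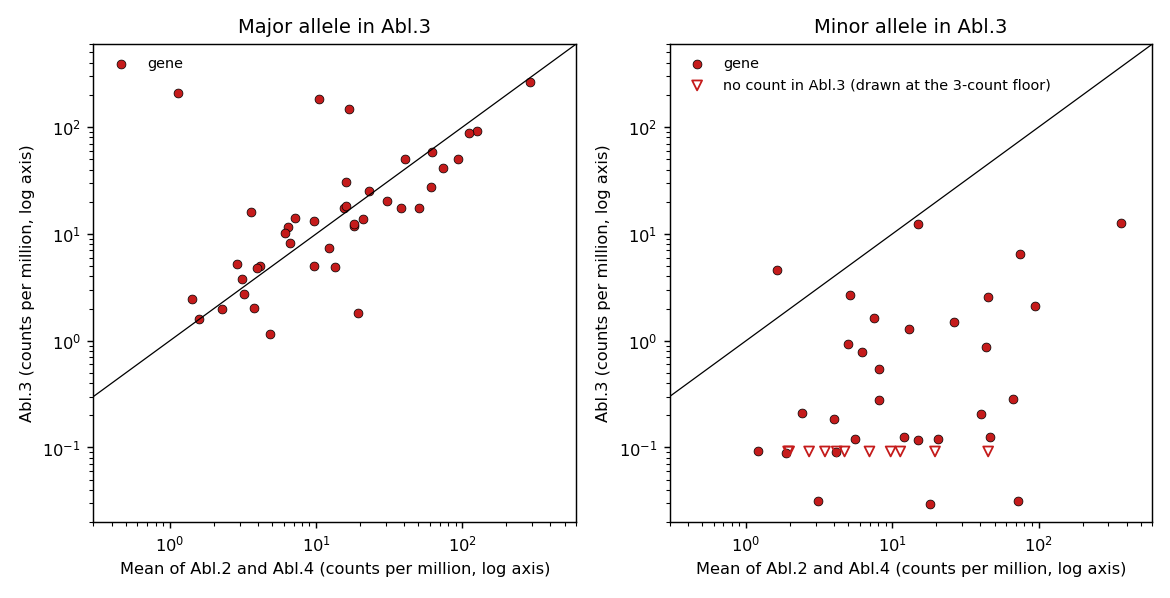
Output of the major (left) and the minor allele (right) in Abl.3 (y axis) against the mean of Abl.2 and Abl.4 (x axis), in CPM on log axes, 1 point per gene; the line marks equal output. Triangles are the 11 genes with no minor-allele count in Abl.3, drawn at the floor of 3 counts over both libraries; points at or below them are genes with 1 to 3 counts.

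Single genes show how varied this was. In Nmral1 the maternal allele gave 58.7 and 57.4 CPM in Abl.2, 61.1 and 55.6 in Abl.3, and 67.9 and 62.6 in Abl.4, while the paternal allele went from 42.3 to 48.9 in the other lines to 0.0588 and 0.191 in Abl.3. In Nuak2, whose abundance passed neither test, the paternal allele gave 27.4 and 33.4 in Abl.3, above the 13.7 to 18.8 of the other lines. In Abcc4 both alleles were lower: the maternal allele was at 42.1 and 40.7 in Abl.3, below the 53.7 to 92.9 of the others, and the paternal allele had a single count. In Eng the paternal allele was at 18.7 and 16.5 in Abl.3, below the 47.3 to 52.6 of the others.

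Sdr39u1 and Scin kept or gained output of the minor allele. In Sdr39u1 the paternal allele was at 12.1 and 12.7 CPM in Abl.3, beside 12.9 to 17.7 in the other lines, while the maternal allele was at 148.7 and 147.6, beside 14.7 to 17.6. Its share past 0.9 came with a maternal output far above that of the other lines and a paternal one just below it. In Scin the paternal allele was at 5.70 and 3.57 in Abl.3, above the 0.645 to 2.27 of the others, and the maternal allele at 202.1 and 216.4, beside 0.645 to 1.87. In Gdpd5 the paternal allele was at 185.2 and 178.8, beside 2.76 to 15.6, and the maternal allele at 2.59 and 2.80, within the 2.17 to 7.35 of the others.

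Of the 17 gene lists, which held from 0 to 21 genes with enough allelic counts each, innate sensing held 2 members among 10 such genes. With 41 members among 7495 genes (0.547%), lists of this size would mostly hold none, and the count was not tested. Tlr2 (ENSMUSG00000027995; chromosome 3, 83836272 to 83841767) encodes a Toll-like receptor for bacterial lipoproteins. It was at 6.43 and 6.37 TPM in Abl.2, 4.23 and 5.0 in Abl.3, and 15.67 and 15.13 in Abl.4. It was lower, with a change of -0.40 against Abl.2 (SE 0.125, adjusted p = 0.0437, limma), a call that was lost under 10 alternatives, among them leaving out any 1 library, and of -1.55 against Abl.4 (adjusted p = 0.00029). Its maternal share was 0.340 and 0.409 in Abl.2, 0.0780 and 0.107 in Abl.3, and 0.432 and 0.444 in Abl.4.

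Aim2 (ENSMUSG00000037860; chromosome 1, 173350879 to 173466040) encodes a sensor of DNA in the cytosol. It was at 19.64 and 25.53 TPM in Abl.2, 1.6 and 1.5 in Abl.3, and 2.54 and 0.36 in Abl.4. The change against Abl.2 was -3.20 (SE 0.418, adjusted p = 0.00175, limma), and the difference of 0.22 from Abl.4 missed the threshold (adjusted p = 0.711). Its share of 0.121 and 0 in Abl.3 came from 33 and 30 counts, and that of 0.40 and 0.205 in Abl.4 from 25 and 44, so it had a high count only in Abl.2, at 0.448 and 0.437. Of the 12 genes of the list tested, 3 were lower in both comparisons, where 14.6% of all genes tested were. By limma 0 were higher, where 4.92% of all genes were, and the count was also 0 at an unadjusted p under 0.05, with edgeR and with DESeq2.

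The list of DNA methylation genes, which holds enzymes that write, read or remove the mark, and that of Polycomb, which maintains silent chromatin, held 0 members among 9 and 19 genes with enough allelic counts, which is near the overall share of 0.547%. Of 16 methylation genes tested, 5 were lower in Abl.3 in both comparisons (Dnmt1, Dnmt3b, Uhrf2, Tet3 and Zbtb38). By limma 0 were higher, 1 at an unadjusted p under 0.05, while edgeR and DESeq2 on the summed allelic counts each called 3 higher. Of 22 Polycomb genes, 4 were lower in both and 2 higher. Of all genes tested, 14.6% were lower in both and 4.92% higher. With library medians set equal 6.81% were lower, a share that does not match these list counts, which use the main scaling. By symbol, 2 members were among the 200 Zfp zinc finger genes with enough counts (Zfp947 and Zfp932), 1 among the 27 Trim genes and 1 among the 330 predicted genes. These counts are small, and no family was tested against the overall share.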

How the data were processed

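RNA-seq of 6 libraries, 2 for each of 3 clonal lines, was used. Per the submitters' processing notes, STAR 2.5.4a, SAMtools, GATK and DESeq2 were used and GRCm38, mm10 and GRCh37 are named, with no role or order given. The allele table holds raw counts per allele at SNP positions, per the file headers. Abundance was deposited as TPM, which the authors obtained with DESeq2 according to the header. TPM keep no depth, so the depth behind abundance is unknown. The authors' deposited allelic imbalance is a fraction per line with replicates averaged and confidence limits, per the file headers; the confidence level and the SNP list are not given in the sources used here.

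The title of each sample gave its line and replicate. Shares, 95% Wilson intervals and CPM were computed from the counts. Genes whose mean over the libraries reached 1 TPM were tested for abundance with limma 3.58.1 in R 4.3.3, with a trended eBayes step on log2(TPM + 1), all 6 libraries sharing 1 estimate of spread; fold changes on this scale understate low genes. Benjamini-Hochberg adjustment ran over 11003 genes. Alternatives were other pseudocounts, filters and scalings, edgeR 4.0.16 and DESeq2 1.42.0 on summed allelic counts, a replicate block, each library left out, and other limits for the members. The scripts were tested on simulated data.

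The members and lists were chosen with earlier results of these data known, and lower abundance of strongly biased genes had already been seen in them. Library values are printed for the 12 members with the highest lowest-library count, the 6 members that fell most and up to 6 that rose most in both comparisons, members on a gene list, and genes nearest the limits. Clgn, Ctsh and the single genes described by allele output were named after their values were seen. Promoters come from RefSeq on GRCm38.p6.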

Additional observations from a re-analysis of the deposited data

How the results depend on the processing

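The number of genes monoallelic in Abl.3 alone was 41, and it became 24 with at least 100 counts in every library, 26 with limits of 0.05 and 0.95, 16 when the other lines had to lie from 0.4 to 0.6, and 25 when every single library had to meet the limits. It was 33 with the authors' deposited estimates and 37 to 46 when a library was left out. The 21 members lower in both comparisons became 17 to 20 when a library was left out, 19 with edgeR and 18 with DESeq2, both run on the summed allelic counts that also chose the genes and so no independent check. The 4 higher in both became 2 among members with at least 100 counts and 1 among those with every library within the limits. They became 2 among members whose exons overlap no other gene. The lowest library count was 22 for Scin and 20 for Ang. Library shares outside 0.3 to 0.7 were 0.296 (Scin, Abl.4), 0.188 (Gdpd5, Abl.4) and 0.708 (Ang, Abl.2). Exons of Sdr39u1 and Ang overlap another gene. When a library was left out, the genes called over the whole table ranged from 2529 to 4565 (Abl.3 against Abl.2, 4382 with all; lowest without an Abl.2 or Abl.3 library), from 2336 to 3659 (Abl.3 against Abl.4, 4194; lowest without an Abl.3 library) and from 2040 to 3269 (Abl.2 against Abl.4, 3682; lowest without an Abl.2 library), and the members that differ between Abl.2 and Abl.4 from 9 to 16 (17 with all). The median change of the major allele, -0.0788, became -0.0619 with median-ratio size factors and ran from -0.1096 to 0.0751 with a library left out, turning positive without Abl.2 replicate 2; the cause was not tested. Of 742 gene values under alternatives, 705 kept their direction and side of the threshold, 37 lost their call and 0 changed sign; most of the 37 belong to Ang, Tlr2, Zfp932 and Shld1.

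With the replicate number as a block, 23 members were lower in both comparisons and 4 higher, and the genes called were 5213, 5184 and 4608 in the order above; of 50 gene results, 0 changed their call. The pairing was checked by the correlation of deviations from the line means over 11003 genes, which was 0.104, 0.187 and 0.161 for the 3 pairs of lines. The labels do not say that a number marks a shared preparation, and whether the numbers pair the libraries was not settled. Depth limits the members with few counts most: 7 had fewer than 50 counts in an Abl.3 library.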
